A study of Mus musculus with 21 samples.

Results

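The liver sinusoid is lined by a fenestrated endothelium that removes waste macromolecules from blood, and this account describes 10 genes of that lining and of oligonucleotide uptake after an antisense drug. The genes are Stab1, Stab2, Lyve1, Clec4g, Fcgr2b, Mrc1, Kdr and Pecam1, which mark sinusoidal or other endothelium, and Asgr1 and Scarb1, which are receptors of hepatocytes. They were found as the probe sets whose only gene symbol in the platform annotation was one of these 10, which gave 18 probe sets for 10 of the 18193 genes measured. Every gene was found. Where a gene had several, the brightest probe set on average is the one reported, and all values are log2 expression values as deposited.

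The drug, SPC3372, is a locked nucleic acid antimiR, a short modified oligonucleotide that binds and blocks microRNA-122, the microRNA that dominates in hepatocytes. Livers of female NMRI mice, an outbred stock, were taken on day 3, 9 or 23. The mice had received 25 mg per kg SPC3372, or saline, on day 2, so these days are not counted from the dose. Each of the 6 groups (SPC3372 at day 3, saline at day 3, SPC3372 at day 9, saline at day 9, SPC3372 at day 23 and saline at day 23) held 3 mice, which the submitters call biological replicates. Neither age nor genotype is given in the labels. Whole liver RNA was measured on Affymetrix arrays, of which those of days 3 and 9 belong to a set named p0617 and those compared at day 23 to a set named p0621. Treated mice were therefore set against saline mice of the same day and array set. Levels of day 23 were joined with those of days 3 and 9 in the search for genes of like pattern and in mean levels over 18 arrays. Those mean levels chose the probe set of each gene and set the median level and level filters. Some mouse numbers in the labels (1, 2 and 3 among saline mice, 8 among treated mice) occur at both day 3 and day 9, and these were counted as different mice because the day is that of death.

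Sinusoidal endothelial cells take up oligonucleotides, hyaluronan and modified proteins through clathrin-coated pits, and the stabilins are known receptors of phosphorothioate oligonucleotides there. Hepatocytes, which hold microRNA-122, take up glycoproteins that end in galactose through the asialoglycoprotein receptor, of which Asgr1 is a subunit. Because whole liver was measured, fewer cells of a type and less RNA per cell cannot be told apart. Several of the genes are also expressed outside this endothelium: Stab1 and Mrc1 in macrophages, Fcgr2b in B cells and macrophages, and Pecam1 in platelets and leukocytes.

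In treated livers 1 endothelial gene rose at 2 of the 3 days by the limma test, and 2 more passed only in the mean of the days. Clec4g, which encodes the C-type lectin LSECtin of sinusoidal endothelium, rose 1.51-fold at day 3 and 1.39-fold at day 9 in SPC3372-treated livers. Its dimmer probe set did not pass, nor did the mean of both probe sets, so these calls rest on the brighter one. Stab2, the stabilin most restricted to sinusoidal endothelium, fell in the mean of the 3 days, to 0.813 of the saline level. Kdr, the main VEGF receptor, rose in the mean of the 3 days by 0.18 ± 0.05 (SE) on the log2 scale. At single days, 1 of the 10 genes passed at day 3 and 1 of 10 at day 9, Clec4g both times, and 0 of 10 passed at day 23 with limma, where 3 of 10 had an unadjusted p under 0.05.

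Those counts stand beside a liver in which 4.51% of all genes passed at day 3, 2.81% at day 9 and 0.385% at day 23 (limma, Benjamini-Hochberg adjusted p under 0.05). In the direction of Clec4g, the share of all genes was 2.63% at day 3 and 1.91% at day 9. In the mean of the days 3 of the 10 genes passed, against 11.6% of all genes: 2 were higher, beside 5.6% of all genes, and 1 was lower, beside 6.01%. At an unadjusted p under 0.05 that mean gave 5 of 10, against 23.9%. With 10 genes, a count of 1 is the smallest that can be seen, and nothing about the set follows from it. The median difference of the 10 genes was 0.19 at day 3, 0.15 at day 9 and -0.06 at day 23, beside 0.01, -0.02 and -0.02 over all genes.

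**Figure D1:**
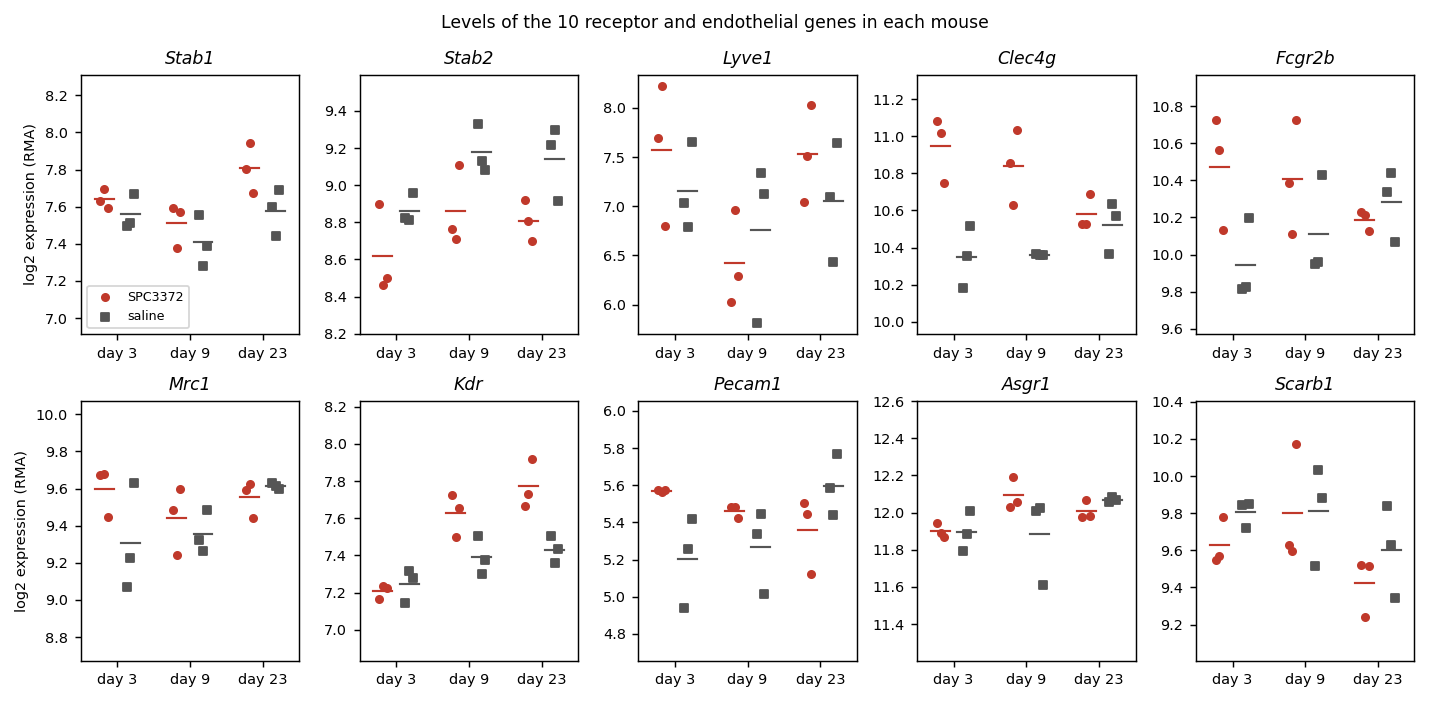
Log2 level of each of the 10 genes in every mouse, with 1 panel per gene, SPC3372-treated mice left of saline mice within each day, points for mice and lines for group means of 3. The Clec4g points of treated mice lie wholly above those of saline mice at days 3 and 9, and the Kdr points do so at day 23. So do those of Pecam1 at day 3 and, by a very small margin, of Asgr1 at day 9. Panels have separate vertical axes, that of Lyve1 being wider, and a level in one panel cannot be set against another.

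For 3 of the genes, the ones with a call, the promoter window that RefSeq (GRCm38.p6) annotates is shown so that the genes can be seen as sequence as well as values. Each runs 5' to 3' on the gene's strand from 250 bases before the annotated start to 50 bases after it, with capitals marking AGGAA or its reverse complement, the core that ETS factors of endothelium bind. Clec4g lies at chr8:3720602-3720901, Stab2 at chr10:87007893-87008192 and Kdr at chr5:75978406-75978705, all on the minus strand.
Clec4g: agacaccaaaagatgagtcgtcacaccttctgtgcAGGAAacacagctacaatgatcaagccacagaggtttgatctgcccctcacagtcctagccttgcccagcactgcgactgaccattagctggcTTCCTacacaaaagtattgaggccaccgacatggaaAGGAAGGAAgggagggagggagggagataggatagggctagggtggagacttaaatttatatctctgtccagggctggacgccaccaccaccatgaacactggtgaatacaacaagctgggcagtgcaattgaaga
Stab2: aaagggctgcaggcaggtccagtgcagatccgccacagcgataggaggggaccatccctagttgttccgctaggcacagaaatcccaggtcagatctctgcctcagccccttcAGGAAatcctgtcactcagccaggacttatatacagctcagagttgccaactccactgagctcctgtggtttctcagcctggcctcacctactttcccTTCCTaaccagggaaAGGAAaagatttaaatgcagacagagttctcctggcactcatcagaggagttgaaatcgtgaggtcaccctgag
Kdr: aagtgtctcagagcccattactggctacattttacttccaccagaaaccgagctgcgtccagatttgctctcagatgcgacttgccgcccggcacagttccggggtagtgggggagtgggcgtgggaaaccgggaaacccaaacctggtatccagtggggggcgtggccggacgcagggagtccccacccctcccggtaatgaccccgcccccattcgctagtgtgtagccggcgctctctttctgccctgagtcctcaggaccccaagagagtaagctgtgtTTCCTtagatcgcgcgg

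Promoter entries were matched for 7 of the 10 genes. Lyve1, Pecam1 and Scarb1 had none. The AGGAA core, searched on both strands, occurred in the windows of 7 of 7, with 4 matches in Clec4g, of which a pair overlap, 3 in Stab2 and 1 in Kdr. That core is common, being present in 66.7% of all 32851 promoter windows of the same length. The interferon response element, taken as a pair of GAAA with any 2 bases between, occurred in 0 of 7 windows, against 3.44% of all windows. The gamma-activated site TTCNNNGAA was found in 1 of 7, Asgr1, against 8.3% of all, the GATA core GATAA in 0 of 7 against 25.4%, and TATAAA in 1 of 7, Clec4g, against 13.6%. All these motifs were searched on both strands, and the Clec4g match is the reverse complement, TTTATA, on the gene's strand. These matches describe letters in a window and say nothing of binding.

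Stab2 encodes stabilin-2, a scavenger receptor for hyaluronan and oligonucleotides. At day 3 its level was 8.90, 8.46 and 8.50 in SPC3372-treated mice, against 8.82, 8.81 and 8.96 in saline mice. At day 9 it was 8.77, 8.71 and 9.11 in treated mice, against 9.33, 9.13 and 9.08 in saline mice, and at day 23 8.92, 8.81 and 8.70 in treated mice, against 9.21, 9.30 and 8.91 in saline mice. In each of these comparisons 1 treated mouse reached above the lowest saline mouse, so the groups overlapped at every day. The differences were -0.24 at day 3, -0.32 at day 9 and -0.33 at day 23, each with an SE of 0.13, and the adjusted p-values of limma were 0.362, 0.233 and 0.267. No single day passed the test. The mean of the 3 days was -0.30 ± 0.08 (SE), with a limma adjusted p of 0.0178. With the 3' to 5' ratio of beta-actin as a covariate, a sign of RNA quality described further on, that mean was -0.34 and did not pass (adjusted p 0.167). The difference was below 0 at all 3 days, which was so for 19.6% of all genes.

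Stab1 encodes stabilin-1, a related receptor that also takes up oligonucleotides. Its level at day 3 was 7.63, 7.70 and 7.59 in treated mice, against 7.50, 7.51 and 7.67 in saline mice, and at day 9 it was 7.59, 7.38 and 7.57 in treated mice, against 7.56, 7.28 and 7.39 in saline mice. At day 23 the levels were 7.80, 7.94 and 7.68 in treated mice, against 7.60, 7.44 and 7.69 in saline mice. Treated and saline mice overlapped at each day. The differences of 0.08, 0.11 and 0.23 at days 3, 9 and 23 (SE 0.10 each) did not pass, with limma adjusted p-values of 0.742, 0.641 and 0.302, nor did their mean of 0.14 ± 0.06 (SE), with an adjusted p of 0.136. The 2 stabilins thus had differences of opposite sign at every day. The difference between them was not tested.

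Clec4g gave the clearest separation. Its level at day 3 was 11.08, 11.02 and 10.75 in treated mice, against 10.18, 10.36 and 10.52 in saline mice. At day 9 the levels were 10.85, 10.63 and 11.03 in treated mice, against 10.36 in each of the 3 saline mice. Every treated mouse lay above every saline mouse on both days, which was so for 11.1% of all genes at day 3 and 10.4% at day 9. By day 23 the groups overlapped, at 10.53, 10.53 and 10.69 in treated mice, against 10.37, 10.64 and 10.57 in saline mice. The group means were 10.95 ± 0.18 in treated and 10.35 ± 0.17 in saline mice at day 3 (SD, n = 3 each), giving a difference of 0.60 ± 0.12 (SE) and a limma adjusted p of 0.00622. At day 9 the difference was 0.48 ± 0.12 (SE), adjusted p 0.0364, and at day 23 it was 0.06 ± 0.12 (SE), adjusted p 0.88. The spread among saline mice of day 9 was small, but the SE comes from a spread shared by all 6 groups.

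The day 9 call of Clec4g held in 13 of the 18 fits that left out 1 array each. In the others the array omitted was from day 9. Omitting the third treated mouse lowered the difference from 0.477 to 0.380 (limma adjusted p 0.165). Omitting the first treated mouse gave 0.469 (adjusted p 0.105). Omitting saline mouse 1, 2 or 3 gave 0.478, 0.475 and 0.477 (adjusted p 0.0902, 0.0868 and 0.0979). Apart from the third treated mouse, these omissions cost the call while the difference stayed nearly the same. The day 3 call held without any 1 of the 18 arrays. In a limma fit on the comparison's own arrays only, neither call held (adjusted p 0.0635 at day 3 and 0.0998 at day 9). A second probe set of Clec4g, with a mean level of 5.16 against 10.60 for the one used, differed by 0.14, -0.09 and -0.12 at days 3, 9 and 23 and did not pass the test at any day. The level of this second probe set was below the median of 5.88 over all genes, where RMA compresses differences. With the mean of both probe sets, Clec4g differed by 0.37 at day 3 (adjusted p 0.0782) and by 0.19 at day 9 (adjusted p 0.419), so both calls rest on the brighter probe set.

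Fcgr2b encodes the inhibitory Fc receptor that clears immune complexes in the sinusoid. Its level at day 3 was 10.72, 10.56 and 10.13 in treated mice, against 9.82, 9.82 and 10.20 in saline mice. At day 9 it was 10.39, 10.11 and 10.72 in treated mice, against 9.95, 9.96 and 10.43 in saline mice, and at day 23 it was 10.23, 10.21 and 10.12 in treated mice, against 10.34, 10.44 and 10.07 in saline mice. The third treated mouse of day 3 lay below the highest saline mouse, and the groups overlapped at all days. Differences were 0.53, 0.30 and -0.09 (SE 0.18 each), with limma adjusted p-values of 0.106, 0.426 and 0.870. Without the third treated mouse of day 3 the day 3 difference was 0.70 and passed, with an adjusted p of 0.0342. Over all 18 arrays left out in turn it ranged from 0.40 to 0.70, with adjusted p-values from 0.0342 to 0.363, and this was the 1 omission that passed.

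The 5 probe sets of Fcgr2b allowed a check within the gene. At day 3, 4 of them with mean levels from 9.12 to 10.23 had differences from 0.39 to 0.53 and limma p-values from 0.067 to 0.133 when adjusted over all probe sets, and the remaining dim one, at a level of 2.99, differed by 0.05. The bright probe sets thus gave alike values. They share the same arrays and RNA and are no replicates of each other.

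Mrc1 encodes the mannose receptor, which endothelium and macrophages use to take up glycoproteins. Its level at day 3 was 9.67, 9.68 and 9.45 in treated mice, against 9.07, 9.22 and 9.63 in saline mice, where the third saline mouse lay among the treated ones. At day 9 it was 9.48, 9.24 and 9.60 in treated mice, against 9.32, 9.26 and 9.48 in saline mice, and at day 23 it was 9.59, 9.62 and 9.44 in treated mice, against 9.63, 9.61 and 9.60 in saline mice. All 3 days overlapped. The differences were 0.29 at day 3, 0.09 at day 9 and -0.06 at day 23 (SE 0.13 each), and none passed (limma adjusted p 0.222, 0.791 and 0.885). Without the third saline mouse of day 3, the day 3 difference was 0.45 and passed, with an adjusted p of 0.0379, and without the first saline mouse of day 3 it was 0.17 and did not pass, with an adjusted p of 0.538. No other omission of 1 array passed.

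Lyve1, a hyaluronan receptor of sinusoidal and lymphatic endothelium, was the most variable of the 10 genes. At day 3 its level was 7.69, 8.22 and 6.80 in treated mice, against 7.04, 6.79 and 7.65 in saline mice. At day 9 the levels were 6.02, 6.96 and 6.29 in treated mice, against 5.82, 7.34 and 7.13 in saline mice, and at day 23 they were 7.04, 7.51 and 8.03 in treated mice, against 7.09, 6.43 and 7.64 in saline mice. Mice of the same group differed by more than the groups did. The differences were 0.41, -0.34 and 0.47 with an SE of 0.43 each, and the limma adjusted p-values were 0.681, 0.748 and 0.687. Its other probe set gave 0.47, -0.09 and 0.45.

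**Figure D2:**
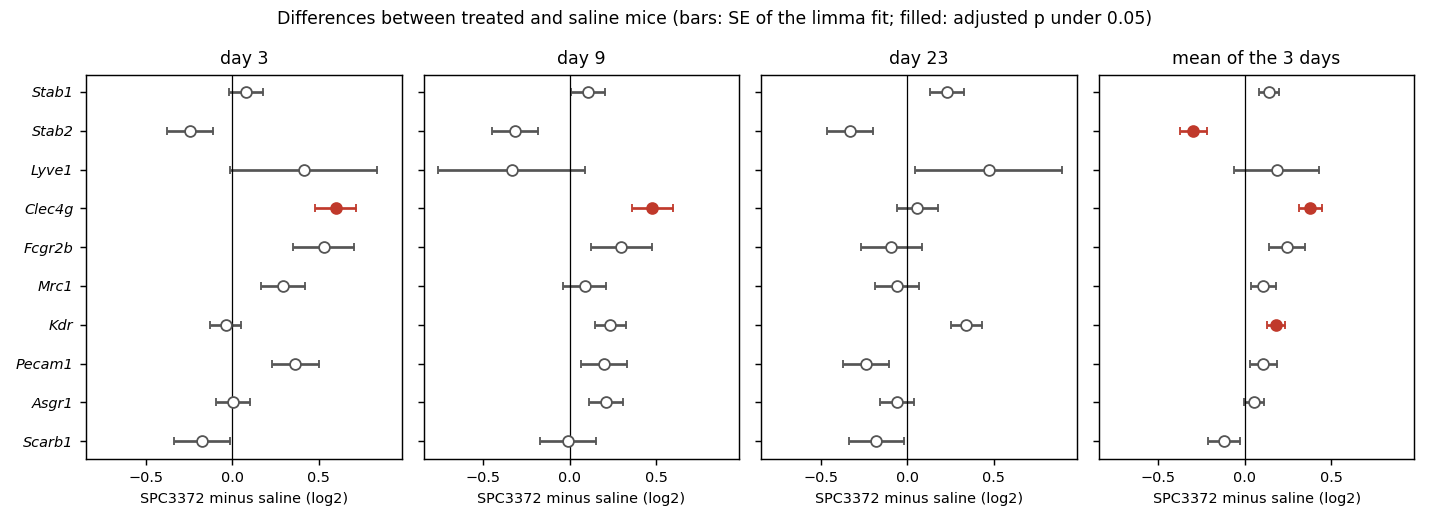
Difference between SPC3372-treated and saline mice (log2, treated minus saline) for each of the 10 genes at days 3, 9 and 23 and in their mean, with bars for the SE of the limma fit and filled points where the adjusted p was under 0.05. Filled points are Clec4g at day 3 (0.60), day 9 (0.48) and in the mean (0.38), and Stab2 (-0.30) and Kdr (0.18) in the mean.

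Kdr encodes the VEGF receptor that maintains endothelium. At day 3 its level was 7.17, 7.23 and 7.22 in treated mice, against 7.14, 7.32 and 7.28 in saline mice. At day 9 it was 7.73, 7.50 and 7.66 in treated mice, against 7.51, 7.30 and 7.37 in saline mice, and at day 23 it was 7.67, 7.73 and 7.92 in treated mice, against 7.50, 7.36 and 7.43 in saline mice. Groups overlapped at days 3 and 9 and separated at day 23, where every treated mouse was above every saline mouse, as in 8.12% of all genes. The differences were -0.04, 0.23 and 0.34 (SE 0.09 each), with limma adjusted p-values of 0.876, 0.184 and 0.0825. The mean of 0.18 ± 0.05 (SE) passed with an adjusted p of 0.0309. With the beta-actin ratio as a covariate it was 0.21 and did not pass (adjusted p 0.188). The call was also lost on leaving out any of 9 arrays, with adjusted p-values between 0.05 and 0.0679: treated day 3 replicate 2, treated day 9 replicates 1 and 3, treated day 23 replicate 3, saline day 3 replicate 1, saline day 9 replicates 2 and 3, and saline day 23 replicates 2 and 3.

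Pecam1, the adhesion molecule CD31 of endothelial junctions, has a probe set whose mean level of 5.41 was below the median of 5.88 over all genes, and RMA compresses differences at such levels. At day 3 its level was 5.57 in each treated mouse, against 4.94, 5.26 and 5.42 in saline mice. At day 9 it was 5.48, 5.48 and 5.43 in treated mice, against 5.34, 5.45 and 5.02 in saline mice, and at day 23 it was 5.50, 5.45 and 5.12 in treated mice, against 5.58, 5.44 and 5.77 in saline mice. The groups did not overlap at day 3 and overlapped at the other days. The differences of 0.37, 0.20 and -0.24 (SE 0.13 each) did not pass, with limma adjusted p-values of 0.141, 0.494 and 0.443.

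The hepatocyte receptors showed no call. Asgr1 stood at 11.94, 11.89 and 11.87 in treated mice, against 11.80, 11.88 and 12.01 in saline mice at day 3, and its differences were 0.01, 0.21 and -0.06 (SE 0.10 each; limma adjusted p 0.986, 0.291 and 0.841). At day 9 its groups did not overlap, at 12.03, 12.19 and 12.06 in treated mice, against 12.01, 12.03 and 11.61 in saline mice, with the first treated mouse and the second saline mouse equal to the second decimal. At day 23 Asgr1 stood at 11.98, 12.07 and 11.98 in treated mice, against 12.06, 12.08 and 12.07 in saline mice. Asgr2, of the same family but not one of the 10, differed by -0.45, -0.11 and -0.08 at days 3, 9 and 23. It did not pass (limma adjusted p 0.274, 0.849 and 0.908). Scarb1, the HDL receptor SR-BI, which also takes up some oligonucleotides, stood at 9.55, 9.57 and 9.78 in treated mice, against 9.84, 9.72 and 9.85 in saline mice at day 3. At day 9 it stood at 9.63, 9.60 and 10.17 in treated mice, against 9.51, 10.03 and 9.88 in saline mice, and at day 23 at 9.52, 9.24 and 9.51 in treated mice, against 9.84, 9.63 and 9.34 in saline mice. Treated and saline mice overlapped on each of these days. Its differences were -0.18, -0.01 and -0.18 (SE 0.16 each), and its adjusted p-values were 0.637, 0.985 and 0.688. The 3 probe sets of Scarb1 gave differences from -0.21 to -0.11 at day 3, from -0.09 to -0.01 at day 9 and from -0.39 to -0.18 at day 23.

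**Figure D3:**
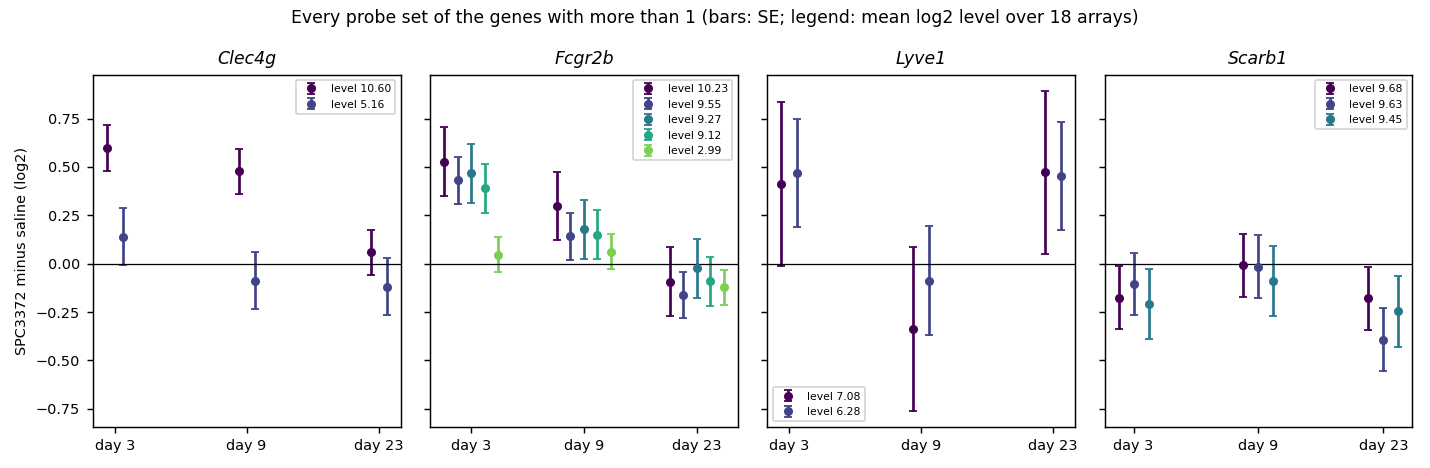
Difference between SPC3372-treated and saline mice (log2, treated minus saline) for every probe set of Clec4g, Fcgr2b, Lyve1 and Scarb1, the genes with more than 1, at days 3, 9 and 23, with bars for the SE of the limma fit and colours for the mean level. The brighter Clec4g probe set stands apart from its dimmer one at days 3 and 9, whereas the 4 bright Fcgr2b probe sets lie within 0.39 to 0.53 at day 3.

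In all, 2 of the 10 genes had groups that did not overlap at day 3 (Clec4g and Pecam1), 2 at day 9 (Clec4g and Asgr1) and 1 at day 23 (Kdr), against 21.5%, 21.6% and 19.2% of all genes. At an unadjusted p under 0.05 the counts were 4, 4 and 3 of 10, against 18.3%, 16.8% and 13.9%. Whether the effect of the drug changed between days was tested for all 10 genes in each of 3 comparisons of days, which is 30 tests. None passed with limma (0 of 30), while at an unadjusted p under 0.05 there were 1 for day 9 minus day 3, 2 for day 23 minus day 9 and 4 for day 23 minus day 3. Of all genes, 0.143%, 0.0055% and 0.302% passed after adjustment in these comparisons, and 11.6%, 8.69% and 10.3% had an unadjusted p under 0.05. The effect on Clec4g at day 23 minus that at day 3 was -0.54 (adjusted p 0.237), so its call at day 3 and absence of one at day 23 do not show a difference between these days. For Kdr the change over the same days was 0.38 (adjusted p 0.281), for Fcgr2b -0.62 (adjusted p 0.404) and for Pecam1 -0.61 (adjusted p 0.242).

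Livers of saline mice also varied between days, but with no call among the 10 genes. Between saline mice of day 9 and those of day 3, 0 of the 10 genes passed with limma, where 5.88% of all genes did, and 1 of 10 had an unadjusted p under 0.05, against 18% of all genes. Stab2 differed by 0.32 (adjusted p 0.209), with all 3 mice of day 9 above all 3 of day 3, as in 11.4% of all genes. The other 9 genes differed by between -0.40 and 0.17.

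Within some groups, single mice were high or low for most of the genes. The third saline mouse of day 3 was the highest of its group for 9 of the 10 genes and the first saline mouse of that day the lowest for 7, the third treated mouse of day 3 was the lowest for 6, and the second treated mouse of day 9 the lowest for 7. Values of different genes in a mouse are not independent of each other.

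A second array of the same mouse gives a scale for these numbers. By mouse number, arrays of both sets exist for each treated mouse of day 23, and the labels do not say whether they share an RNA extract. The 30 differences between them (p0621 minus p0617, 3 mice, 10 genes) lay between -0.36 and 0.39, with 26 of 30 within 0.2. Clec4g differed by at most 0.06 in size between the sets and Stab2 by at most 0.13, while Kdr differed by up to 0.25 and Lyve1 by up to 0.39. No gene passed a limma test of array set with the mouse as a block (0 of 18193, against 1864 at an unadjusted p under 0.05), and 0 of the 10 genes had an unadjusted p under 0.05.

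Other endothelial genes gave no call at a single day. Of 15 other sinusoidal endothelial genes, 0 passed at any of the 3 days with limma, and 1, 3 and 3 had an unadjusted p under 0.05. Their median differences were 0.06, 0.16 and 0.05. Maf, a transcription factor of sinusoidal identity, differed by 0.11, 0.35 and 0.37 and passed in the mean of the days (0.27 ± 0.06, SE, adjusted p 0.00722). It was 1 of the 15 to rise in that mean, beside 5.6% of all genes. Ehd3, an endocytic protein of these cells, differed by -0.05, 0.04 and 0.06. Of 18 pan-endothelial genes 0 passed at any day, with 3, 2 and 0 at an unadjusted p under 0.05, and Nrp1 and Ptprb, the brightest, differed by -0.27 and -0.01 at day 3. The 8 large-vessel and capillary genes gave 0 calls, Plvap, a component of fenestral diaphragms, having the largest difference at 0.80 on day 9 (adjusted p 0.122), with 0, 1 and 0 at an unadjusted p under 0.05. The 8 activation genes, among them Icam1 (0.10, 0.06 and 0.02) and Nos3 (0.12, -0.50 and -0.42), gave 0 calls, with 2, 1 and 3 at an unadjusted p under 0.05.

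Among receptors outside the 10 genes, those called at day 3 included receptors known from macrophages. Of 18 other scavenger and nucleic acid binding receptors, 3 rose and 0 fell at day 3, where 2.63% of all genes rose. These were Marco by 1.98 (3.95-fold, adjusted p 0.00306), Cd68 by 1.03 (adjusted p 0.00811) and Msr1 by 0.67 (adjusted p 0.0327). At day 9 none passed (0 of 18, with 2 at an unadjusted p under 0.05). At day 23 1 rose, the collectin Colec12, by 0.69 (adjusted p 0.0362), where 0.385% of all genes passed. In the mean of the days 4 of 18 rose, where 5.6% of all genes did, and 0 fell. These were Colec12 by 0.40, Msr1 by 0.39, Cd68 by 0.48 and the lysosomal protein Scarb2 by 0.21. Of 10 hepatocyte endocytic receptors measured, Vldlr, the very low density lipoprotein receptor, rose at day 3 by 1.99 (adjusted p 0.0308), and at days 9 and 23 0 passed, with 4 and 2 at an unadjusted p under 0.05. Vldlr differed in the opposite direction at those days, by -1.35 (adjusted p 0.176) and -0.91 (adjusted p 0.447), so its mean over the days was -0.09. Over the mean of the days, Tfr2 (-0.19), Pigr (-0.26) and Lrpap1 (-0.15) fell and Igf2r rose by 0.27 (adjusted p 0.0117, 0.0101, 0.0468 and 0.0217). These were 3 lower and 1 higher of the 10, beside 6.01% and 5.6% of all genes. Among 16 clathrin and endosome genes the adaptor subunit Ap2b1 rose at day 9 by 0.83 (adjusted p 0.00467), where 1.91% of all genes rose. It was the only call of the list at a single day. In the mean of the days 4 of 16 rose, beside 5.6% of all genes, and 0 fell. They were Ap2b1 by 0.29, the adaptor subunit Ap2a2 by 0.25, the clathrin heavy chain Cltc by 0.22 and the late endosomal GTPase Rab7 by 0.15 (adjusted p from 0.0089 to 0.0357).

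Macrophage genes moved at the same day. Of the 15 markers of Kupffer cells and macrophages, 8 rose and 0 fell at day 3, where 2.63% of all genes rose. Their median difference was 0.81. Besides Marco and Cd68, which are also in the receptor list, the 8 included Folr2 (1.04, adjusted p 0.000223) and Clec4f (1.04, adjusted p 0.00265). At day 9 and day 23 0 of 15 passed, with 6 and 2 at an unadjusted p under 0.05. The brightest, Csf1r, differed by -0.41 at day 9 and -0.43 at day 23 (limma adjusted p 0.274 and 0.298). Cd5l, the next brightest, differed by 0.09 and 0.24 (adjusted p 0.864 and 0.65). Differences of the 15 markers were above 0 for 13 and below 0 for 2 at day 9, and for 10 and 5 at day 23. The log2 of their summed level at day 3 ranged from 13.49 to 14.09 in treated mice and from 12.64 to 13.52 in saline mice, and the highest saline value belonged to the third mouse, the one that was highest for 9 of the 10 genes. At day 9 the range was 13.12 to 13.28 in treated and 12.86 to 13.23 in saline mice, and at day 23 13.10 to 13.40 in treated and 13.16 to 13.28 in saline mice. Their part in the differences of Clec4g, Fcgr2b, Mrc1 and Pecam1 was not tested.

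Interferon response genes, which respond to viral and some nucleic acid signals, rose at the same days. Of 10 measured, 9 rose at day 3 and 7 at day 9, where 2.63% and 1.91% of all genes rose. At day 23 0 passed and 7 had an unadjusted p under 0.05. Median differences at the 3 days were 2.25, 0.88 and 0.49. Their log2 summed level at day 3 was 12.39 to 12.86 in treated and 10.60 to 11.12 in saline mice, and at day 9 it was 11.37 to 11.82 in treated and 10.79 to 11.06 in saline mice. Ifit1 had the largest difference, 3.04 at day 3 (adjusted p 0.000101). The relation of this response to the 10 genes was not tested.

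A measure of RNA quality also differed between groups at the days of the Clec4g calls. The log2 ratio of the 3' to the 5' beta-actin control probe sets, which rises as RNA is less complete at its 5' end, averaged 1.03 ± 0.02 in treated and 0.80 ± 0.05 in saline mice at day 3, 1.14 ± 0.02 in treated and 0.93 ± 0.06 in saline mice at day 9, and 1.15 ± 0.16 in treated and 1.16 ± 0.04 in saline mice at day 23 (SD, n = 3 each). The groups did not overlap at days 3 and 9. With this ratio as a covariate, the Clec4g difference was 0.67 at day 3 (adjusted p 0.0982) and 0.55 at day 9 (adjusted p 0.222). It was larger in size but past the threshold at neither day, and 98 genes passed at day 3 in place of 821. Since the ratio went with treatment at days 3 and 9, this fit cannot tell RNA quality from treatment there. That limit also holds for the means of Stab2 and Kdr under the same covariate.

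**Figure D4:**
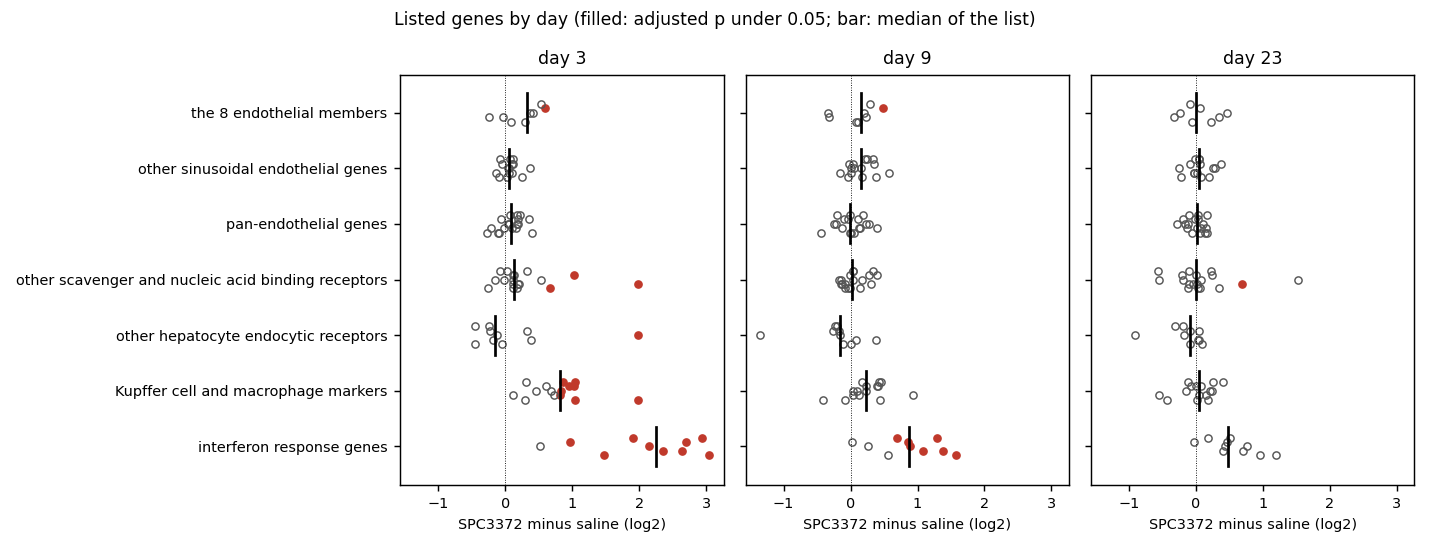
Difference between SPC3372-treated and saline mice (log2, treated minus saline) of every gene of 7 lists at days 3, 9 and 23, with filled points where the limma adjusted p was under 0.05 and a bar at the median of each list. The medians of the interferon and macrophage lists stand highest at day 3, at 2.25 and 0.81, and those of the 15 other sinusoidal genes are 0.06, 0.16 and 0.05.

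The remaining lists covered other cell types. Of 12 stellate cell markers, 4 rose and 0 fell at day 9, where 1.91% of all genes rose. These were Hgf by 1.01, Reln by 0.63, Dcn by 0.57 and Hand2 by 0.53 (limma adjusted p from 0.0308 to 0.0452). In the mean of the days 1 of the 12 rose, Bgn, and 1 fell, Des, beside 5.6% and 6.01% of all genes. Among 11 hepatocyte markers Pck1, the rate-limiting enzyme of gluconeogenesis, rose by 0.76 at day 3 and 0.74 at day 9. Gzma, a granule protease of cytotoxic lymphocytes, rose 2.65-fold at day 3 as 1 of 7 T and NK cell markers. Epcam rose by 0.32 at day 3 as 1 of 5 cholangiocyte markers. Of all genes, 2.63% rose at day 3. The 6 B cell, 5 neutrophil and 5 platelet markers gave 0 calls at any day; at an unadjusted p under 0.05 there were 0, 2 and 1 for B cells, 1, 0 and 1 for neutrophils and 0 at each day for platelets. Ighm, the brightest B cell marker, differed by -1.18 at day 9 (adjusted p 0.196).

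Among all genes above the median level, those whose pattern over the 18 arrays lay closest to a member were sought by the root mean square of the difference between gene-centred log2 values, for the 3 members whose group means varied most. For Clec4g these were Dennd1b (0.10), Iqgap1 (0.12) and Lmo2 (0.12), where the median over all genes compared was 0.32. Having been chosen for following Clec4g on these arrays, they are given with no test: at days 3 and 9 the differences between treated and saline mice were 0.51 and 0.57 for Dennd1b, 0.54 and 0.28 for Iqgap1 and 0.54 and 0.30 for Lmo2. For Kdr the closest were Dlg1 (0.087), Paip1 (0.094) and Fam91a1 (0.098) against a median of 0.27. Their differences between treated and saline mice at days 3, 9 and 23 were -0.04, 0.14 and 0.18 for Dlg1 and 0.02, 0.18 and 0.32 for Paip1. For Fam91a1 they were -0.05, 0.02 and 0.26. Closeness over the 18 arrays also takes in levels that differ between days and array sets. For Lyve1 the closest were Msr1 (0.47), Cyp2b10 (0.49) and Zmat3 (0.50) against 0.675. The values for Lyve1 were far from 0, so no gene followed it closely.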

How the data were processed

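Liver RNA of 18 mice was measured on 21 Affymetrix arrays (15 in p0617, 6 in p0621), and 1 array per mouse was used. The deposited log2 values of 45101 probe sets were made by the authors with RMA, per the submitters' processing notes; which arrays were normalized together is not given in the sources used here. Array medians ran from 4.75 to 4.82, and array number limits the precision. Of the probe sets, 34945 had 1 gene symbol in the platform annotation and 932 several, which were left unnamed. The probe set with the highest mean stood for each of 18193 genes.

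Group means were fitted with limma 3.58.1 (lmFit, eBayes; R 4.3.3) over 6 groups, giving 12 residual degrees of freedom. P-values are two-sided, adjusted by Benjamini-Hochberg over all genes, with a threshold of 0.05. The named genes are the 10 members, up to 4 genes per list and day among those past the test (otherwise the 2 brightest), and the 3 genes most like each of 3 members; genes of lists named for the mean of the days were chosen after their values were seen. Members and lists were chosen with earlier results of these data known. Steps were tested on simulated data. Alternatives covered the arrays fitted, normalization, filters, probe sets, prior, replicate block, fold, array set, beta-actin ratio and each array left out. Figures used matplotlib 3.10.9.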

Additional observations from a re-analysis of the deposited data

Results flagged for a closer look

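Of the genes and lists described, 8 results were singled out because the effect of SPC3372 differed between days by the limma interaction test (adjusted over all genes), all of them interferon response genes and none of them one of the 10 genes. From day 3 to day 9 the effect on Irf7 changed by -1.84 (adjusted p 0.0221) and on Oasl2 by -1.64 (adjusted p 0.0364). Over day 23 minus day 3 it changed by -2.43 for Oasl2 (adjusted p 0.00107), -2.24 for Irf7 (adjusted p 0.00206), -1.94 for Usp18 (adjusted p 0.0485), -1.92 for Ifit2 (adjusted p 0.0143), -1.73 for Rtp4 (adjusted p 0.00298) and -1.39 for Ifit3 (adjusted p 0.021). Day 23 lies in the other array set, but each effect is a difference within 1 set. In the treated mice of day 23, measured on both sets, the log2 summed level of the interferon list was 11.28 to 11.58 on p0621 and 11.32 to 11.69 on p0617. Saline mice of day 23 were compared on p0621. With 3 mice in each group, no group was large enough for a test of single outlying mice.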

How the results depend on the processing

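The 31 alternatives were 18 that left out 1 array each, 12 other planned settings and 1, preferring probe sets without a cross-hybridisation suffix, that was chosen after seeing the data. No called difference of the 10 genes changed sign under any of them. Leaving out 1 array gave 435 to 876 genes at day 3, 176 to 529 at day 9 and 3 to 115 at day 23, and 1 to 2 of the 10 genes at day 3 and 0 to 1 at day 9. The fit on a comparison's own 6 arrays gave 253, 132 and 0 genes at days 3, 9 and 23 and 0 of the 10 genes at days 3 and 9. A required change of at least 1.5-fold gave 28, 0 and 0 genes and 0 of the 10 at days 3 and 9 and in the mean of the days. The beta-actin ratio as a covariate gave 98 and 35 genes at days 3 and 9, 0 of the 10 at both days and 1 in the mean of the days, Clec4g; Stab2 (-0.34, adjusted p 0.167) and Kdr (0.21, adjusted p 0.188) no longer passed there, although neither difference was smaller in size than without the covariate. Averaging all probe sets of a gene gave 0 of the 10 at days 3 and 9. At day 23 there were 115 genes with quantile normalization, 43 with median centring, 340 with a filter at the median level, 380 with one at the 75th percentile, 210 with an intensity trend and robust prior and 179 with the p0617 arrays of the treated mice, in place of 70. The filter at the median level also let 1 of the 10, Kdr, pass at day 23 (adjusted p 0.0397, range over its alternatives 0.0397 to 1); fewer genes were then tested. Replicate numbers did not pair the mice: same-numbered treated and saline mice had deviations correlated at -0.137 to 0.076, and 0 of 9 exceeded 0.1. With the replicate block, 13 genes passed at day 23 and 0 of the 10 at day 9, Clec4g having an adjusted p of 0.0512. Clec4g at day 3 passed in 27 of 31 alternatives (adjusted p 0.00205 to 1) and at day 9 in 21 of 31, Stab2 in the mean of the days in 28 of 30, and Kdr in 18 of 29. The other causes were not tested, and dim probe sets such as that of Pecam1 limit what could be seen.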

Other observations

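Genes of the same families as Clec4g, Fcgr2b, Mrc1, Asgr1, Scarb1 and Kdr were picked by symbol after the values of the 10 genes had been seen. They were 24 genes, most of them C-type lectins (Clec4 and Cd209 genes, Asgr2, Mrc2) or Fc receptor genes, with the VEGF receptors Flt1 and Flt4 and the scavenger receptor family gene Scarb2, and 10 of them lay above the median level. At day 3, 6 of 24 rose in SPC3372-treated livers (limma adjusted p under 0.05), where 2.63% of all genes did. They were Clec4f by 1.04, Clec4a3 by 0.90, Fcgr1 by 0.88, Clec4n by 0.82, Fcer1g by 0.70 and Clec4b1 by 0.45. Of them Clec4a3, at a mean level of 5.53, and Clec4b1, at 3.37, lay below the median level. The 6 genes are known mainly from macrophages and other myeloid cells. At days 9 and 23, 0 of 24 passed with limma, with 3 and 2 at an unadjusted p under 0.05. The activating Fc receptors Fcgr3 and Fcgr4 differed by 0.36 (adjusted p 0.282) and 0.57 (adjusted p 0.0853) at day 3 and did not pass.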
